A study of Mus musculus with 8 samples.

Results

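Chemokines are small secreted proteins that attract cells along a gradient, and tumor cells and fibroblasts are both known sources of them in mammary tumors. The transcripts of 8 chemokines and of the macrophage growth factor Csf1 were examined singly in each library of the data set. These 9 genes were taken from the table by symbol (Cxcl12, Cxcl1, Cxcl5, Cxcl10, Cxcl16, Ccl2, Ccl5, Ccl20 and Csf1), and all 9 were found among its 10924 genes. They were selected on their expression values in these libraries, with earlier results known, among them the difference in Cxcl12 between libraries of the same group, so the levels of Cxcl12 are given as a description with no test.

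RNA was profiled by MARS-seq, in which RNA is barcoded as it is reverse transcribed and sequenced from its 3′ end. It came from cell lines derived from PyMT mammary tumors of strain FBV/N mice, in which the MMTV promoter drives the polyoma middle T oncogene in mammary epithelium. All 8 libraries carry this oncogene. The lines were wild type (WT) or had a conditional deletion of Lats1, a kinase of the Hippo pathway (Lats1-CKO), made according to the study in the epithelial compartment. Each genotype was sorted into luminal cells (EpCAM-high; CD49f-high) and basal-like cells (EpCAM-low; CD49f-high), which the study grew briefly after the sort. This gave 4 groups of 2 libraries. The labels do not say whether the libraries of a group came from separate cultures, so a p-value reflects only how far these samples spread, which may be technical.

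By family, CXC chemokines that carry the ELR motif, such as Cxcl1 and Cxcl5, attract neutrophils through Cxcr2, and Cxcl10 attracts activated T cells and NK cells through Cxcr3. Cxcl12 is the ligand of Cxcr4 and of the scavenging receptor Ackr3, and is a typical product of fibroblasts. Cxcl16 is made as a membrane-anchored protein that metalloproteases of the ADAM family can release, and its receptor is Cxcr6. Among the CC chemokines, Ccl2 attracts monocytes through Ccr2, Ccl5 attracts T cells and monocytes, and Ccl20 attracts Ccr6-bearing dendritic cells and lymphocytes. Csf1 sustains macrophages through Csf1r, which also binds Il34. Many of these genes respond to NF-kB, and Cxcl10 is a classical interferon target.

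The promoters of Cxcl12, Cxcl1 and Cxcl10 are shown because these genes stand for the CXC ligands with different library patterns described below, and RefSeq (GRCm38.p6) gave an entry for them and for 2 further members (5 of 9 in all). Each run covers the 250 bases before the start of the gene, 5′ to 3′ on the strand of the gene, and capitals mark matches to a motif. The windows are chr6:117168285-117168534 on the plus strand for Cxcl12, chr5:90890995-90891244 on the plus strand for Cxcl1 and chr5:92348890-92349139 on the minus strand for Cxcl10.
Cxcl12: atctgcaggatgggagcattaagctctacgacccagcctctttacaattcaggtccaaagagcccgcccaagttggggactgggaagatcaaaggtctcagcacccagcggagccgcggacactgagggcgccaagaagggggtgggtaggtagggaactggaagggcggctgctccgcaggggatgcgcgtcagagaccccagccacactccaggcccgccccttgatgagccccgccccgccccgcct
Cxcl1: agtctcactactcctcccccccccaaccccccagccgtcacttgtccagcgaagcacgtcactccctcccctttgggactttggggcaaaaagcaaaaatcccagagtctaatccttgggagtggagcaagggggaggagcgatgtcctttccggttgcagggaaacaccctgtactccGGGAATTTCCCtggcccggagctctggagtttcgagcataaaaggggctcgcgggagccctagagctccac
Cxcl10: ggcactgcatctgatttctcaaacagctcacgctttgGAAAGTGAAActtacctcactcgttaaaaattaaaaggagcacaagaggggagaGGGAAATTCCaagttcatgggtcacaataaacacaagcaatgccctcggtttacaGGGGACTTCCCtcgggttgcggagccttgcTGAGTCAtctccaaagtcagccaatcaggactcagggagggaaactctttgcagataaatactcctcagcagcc
Motifs were searched on both strands as the NF-kB consensus, the interferon element core (GAAA, any 2 bases and GAAA again) and the AP-1 site TGANTCA, which 7.25%, 2.98% and 6.75% of 32851 RefSeq promoter windows of this length held. Cxcl1 had 2 overlapping NF-kB matches, 71 to 62 and 70 to 61 bases before the start. Cxcl10 had 3 NF-kB matches, of which 2 overlapped each other (104 to 95 and 103 to 94 bases before the start) and the other lay 159 to 150 bases before it, together with 1 interferon element match (213 to 204 bases) and 1 AP-1 match (74 to 68 bases). The Cxcl12 window held no match to these 3 motifs. Ccl20 and Csf1 each had 1 NF-kB match, 80 to 71 and 154 to 145 bases before the start.

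The libraries held 1070358 to 2334446 reads, and 1 read was worth a normalized read count of 0.638 to 1.35, so low members rest on few reads. Intervals given for low values are exact Poisson intervals at 95% and cover counting error only. The values of Lats1 were 30.3 to 62.5 in the 4 WT libraries and 8.04 to 13.4 in the 4 Lats1-CKO libraries. Several libraries did not follow their labels or group. Lats1-CKO luminal replicate 2 had a Krt5 value of 4881 against at most 31.9 in the other 7 libraries. WT basal-like replicate 1, from a population sorted for low EpCAM, had an Epcam value of 562, within the 511 to 708 of the 4 luminal libraries. Over the tested genes WT luminal replicate 2 correlated with it more (r = 0.942) than with its own replicate (r = 0.892). The Lats1-CKO basal-like libraries correlated at r = 0.792 with each other. Replicate 1 of them was closer to Lats1-CKO luminal replicate 1 (r = 0.852), and replicate 2 to Lats1-CKO luminal replicate 2 (r = 0.868). The Lats1-CKO luminal libraries correlated at r = 0.863 with each other. The 8 epithelial markers (keratins, claudins, Epcam and Cdh1) summed to 3590 to 16688 in the 6 WT and Lats1-CKO luminal libraries, and to 273 and 365 in Lats1-CKO basal-like cells. In bulk RNA, fewer cells of a type and less RNA per cell cannot be told apart.

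Where a member differed between the replicates of a Lats1-CKO group, replicate 1 was the higher. In Lats1-CKO luminal cells replicate 1 was higher than replicate 2 for 9 of 9 members, each by at least 2-fold on the log2(value + 1) scale, whereas 17.6% of the 9031 tested genes were that far apart. In Lats1-CKO basal-like cells replicate 1 was higher for 8 of 9, with Ccl20 at 0 reads in both, and 6 of 9 were at least 2-fold apart, against 30.8% of tested genes. The median absolute difference of the members between replicates was 2.86 (log2) for Lats1-CKO luminal cells and 1.96 for Lats1-CKO basal-like cells, where that of all tested genes was 0.39 and 0.60. In WT luminal cells it was 0.69 for the members and 0.47 for all genes, and replicate 1 was higher for 2 of 9. In WT basal-like cells it was 0.63 and 0.49, and replicate 1 was higher for 6 of 9. These counts describe members that were chosen partly for such differences, and no test was made of them.

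**Figure D1:**
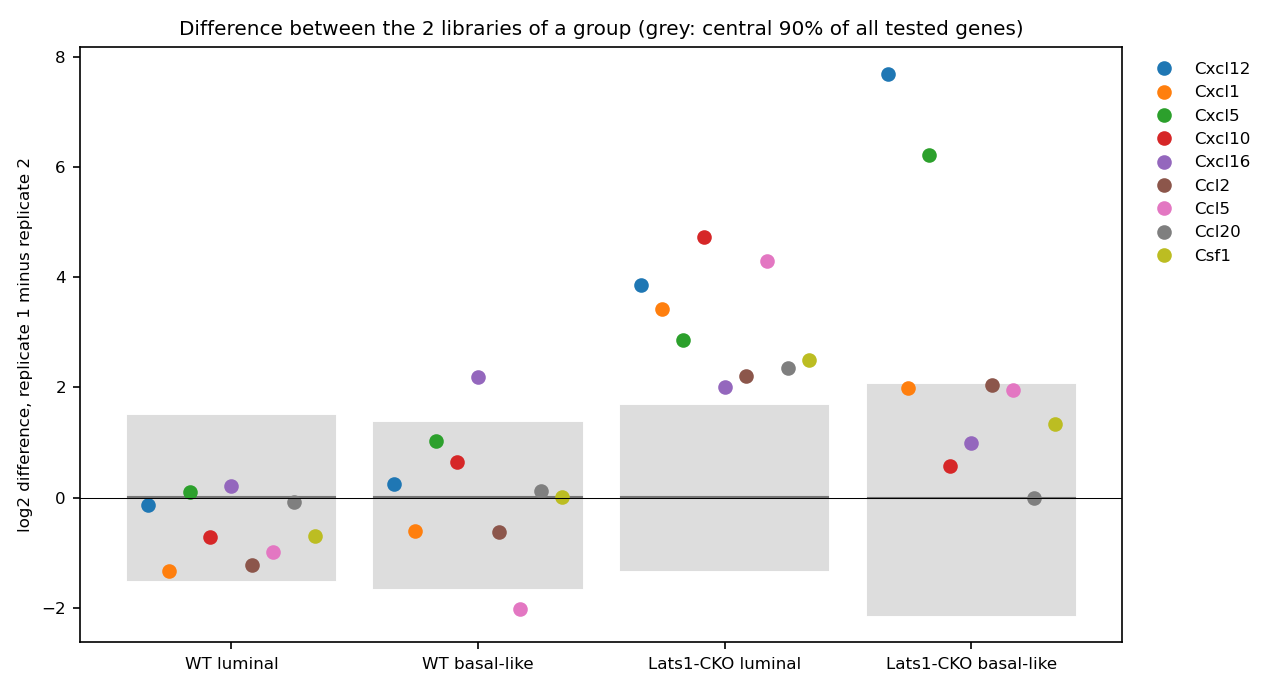
Difference between the 2 libraries of each group for the 9 genes, as log2(normalized read count + 1) of replicate 1 minus replicate 2, on the y axis, with a point per gene. Grey bars span the central 90% of the 9031 tested genes and the grey line their median. All 9 points of the Lats1-CKO luminal group lie above its grey bar, and Cxcl12 and Cxcl5 stand highest in Lats1-CKO basal-like cells.

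Cxcl12 (chromosome 6, 117168535 to 117181367, plus strand, GENCODE M21 on GRCm38) was high in 2 of the 8 libraries, both replicate 1 of a Lats1-CKO group. Its normalized read count was 2881 in Lats1-CKO basal-like replicate 1 and 12.9 in replicate 2 of that group. In Lats1-CKO luminal cells it was 248 in replicate 1 and 16.1 in replicate 2. The WT luminal libraries had 16.2 and 17.9, and the WT basal-like libraries 42.7 and 35.8. The highest library thus stood 11.6-fold above the next and 223-fold above its own replicate. Next in order came the WT basal-like libraries, followed by the WT luminal libraries and replicate 2 of both Lats1-CKO groups, whose values of 12.9 to 17.9 had overlapping counting intervals (6.21 to 23.8 and 11.9 to 25.8 for the ends of that range). The WT basal-like libraries lay above both WT luminal libraries. The mean of the Lats1-CKO basal-like group, 1447 ± 2028 (SD, n = 2), describes neither of its libraries.

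The genes that followed Cxcl12 most closely over the 8 libraries on the log2(value + 1) scale, among 8311 compared, were Pxylp1 (r = 0.988), Lox (0.972), Pdgfra (0.955), Mmd (0.953) and Fnip2 (0.952). Lox encodes lysyl oxidase, which cross-links collagen, and Pdgfra a growth factor receptor typical of fibroblasts. These coefficients rest largely on Lats1-CKO basal-like replicate 1, in which Lox was at 1889 against 19.2 to 258 elsewhere and Pdgfra at 76.3 against 0.638 to 14.4. Of the 14 fibroblast markers listed, 10 were among the genes analyzed, and their values summed to 2932 in Lats1-CKO basal-like replicate 1 and to 165 to 999 in the other 7 libraries. Not all 10 peaked in Lats1-CKO basal-like replicate 1, where Col1a1 was at 5.36, Col1a2 at 14.7 and Dcn at 0 reads. These were highest in its replicate (10.35, 220 and 12.9), where Cxcl12 was 12.9. The other markers analyzed were highest in Lats1-CKO basal-like replicate 1: Col3a1 (238), Pdgfrb (666), Pdgfra, Thy1, Fbln1, Fbln2 and Postn. In Lats1-CKO luminal replicate 1, the other Cxcl12-high library, the sum of 743 was below the 999 of WT basal-like replicate 2 and the 861 of Lats1-CKO basal-like replicate 2, in which Cxcl12 was 35.8 and 12.9. Fbln2 and Pdgfrb carried much of these sums. Without them the sum of the other 8 markers was 139 in Lats1-CKO luminal replicate 1, above the 79.6 of WT basal-like replicate 2 and below the 333 of Lats1-CKO basal-like replicate 2, and it was highest, at 559.9, in Lats1-CKO basal-like replicate 1. Whether fibroblasts had a part in the Cxcl12 values was not tested. A wash meant to detach fibroblasts was used when the lines were made. The study still classed some cells of its Lats1-CKO cultures as fibroblasts, from their LATS1 and CD44 protein. That was done in cultures not sorted by EpCAM and CD49f, and the share of fibroblasts in the sorted libraries is not given. Lats1 was at 8.04 in Lats1-CKO basal-like replicate 1 and 13.4 in Lats1-CKO luminal replicate 1.

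**Figure D2:**
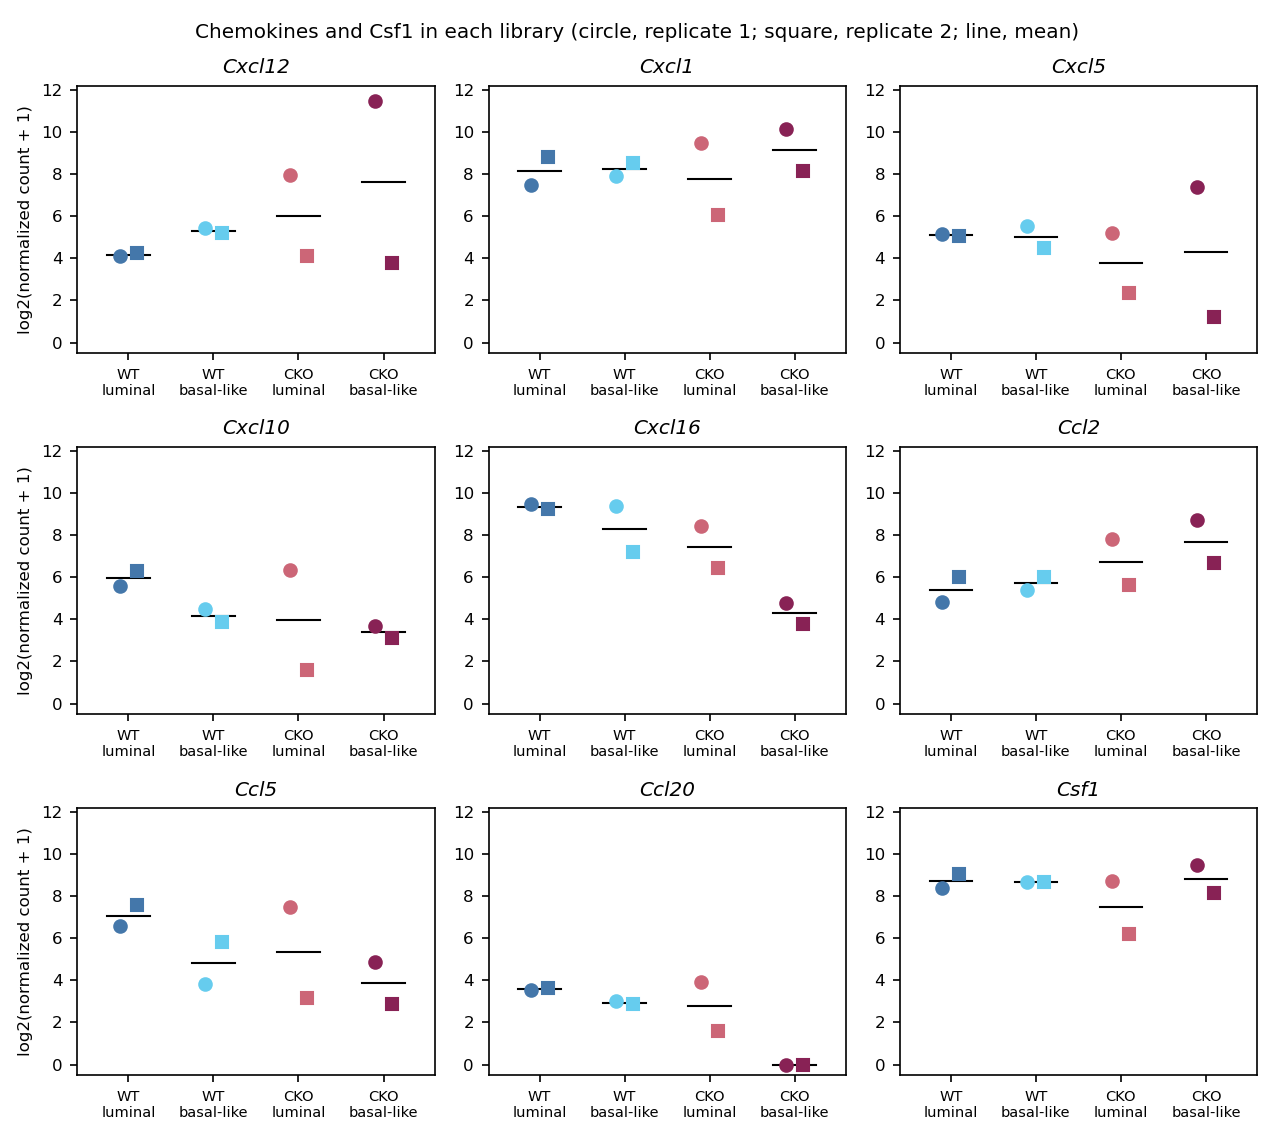
Normalized read counts of the 9 genes as log2(value + 1) on the y axis, by group on the x axis (CKO, Lats1-CKO), with a circle for replicate 1, a square for replicate 2 and a line at the mean of the 2. Cxcl12 reaches 2881 in 1 Lats1-CKO basal-like library and 12.9 in the other, Cxcl16 is lowest in Lats1-CKO basal-like cells, and Ccl20 is at 0 there.

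Ackr3, the receptor that binds and removes Cxcl12, was among the genes analyzed. Its values, replicate 1 before replicate 2, were 10.8 and 14.0 for WT luminal cells, 12.4 and 32.6 for WT basal-like cells, 26.9 and 16.1 for Lats1-CKO luminal cells, and 88.4 and 45.3 for Lats1-CKO basal-like cells. The Lats1-CKO basal-like libraries were the highest of the 8, and Ackr3 was not called in any of the 7 comparisons by limma. Of the 20 receptors listed, 2 were among the genes analyzed, Ackr3 and Csf1r. Cxcr4, Cxcr2, Cxcr3, Cxcr6, Ccr2 and Ccr6 were not analyzed here.

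Of the neutrophil-attracting ligands, Cxcl1 (chromosome 5, 90891241 to 90893115, plus strand) was detected in all 8 libraries. The WT luminal libraries had values of 178 and 451 and the WT basal-like ones 244 and 373, while the Lats1-CKO luminal libraries had 714 and 65.6 and the Lats1-CKO basal-like ones 1126 and 283. The 2 highest were again replicate 1 of the Lats1-CKO groups and the lowest was Lats1-CKO luminal replicate 2, so that the groups overlapped in every comparison. Cxcl1 was 10.9-fold apart between the Lats1-CKO luminal replicates and 3.97-fold between the Lats1-CKO basal-like ones. The WT values, by contrast, differed by at most 2.53-fold within a group.

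Cxcl5 (chromosome 5, 90759360 to 90761624, plus strand), which lies near Cxcl1, was further apart than Cxcl1 between the replicates of both basal-like groups and less far apart between those of both luminal groups. Its values, replicate 1 before replicate 2, were 35.1 and 32.5 for WT luminal cells, 45.1 and 21.5 for WT basal-like cells, 35.5 and 4.04 for Lats1-CKO luminal cells, and 170.1 and 1.29 for Lats1-CKO basal-like cells. The last of these was 1 read, with an interval of 0.0328 to 7.21, so the 131-fold ratio to its replicate is imprecise, but the interval of the replicate (142 to 202) did not reach it. Over the 8 libraries Cxcl5 and Cxcl12 had r = 0.718 and a rank correlation of 0.881, and Cxcl12 and Cxcl1 had 0.757 and 0.714. As with all correlations here, n is 8 and the points of a library share its depth.

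Cxcl10 (chromosome 5, 92346638 to 92348889, minus strand) was high in 3 of the 8 libraries, all luminal. The WT luminal libraries had values of 47.3 and 77.8 and the WT basal-like ones 21.8 and 13.5, while the Lats1-CKO luminal libraries had 79.6 and 2.02 and the Lats1-CKO basal-like ones 12.1 and 7.77. The other luminal library, Lats1-CKO luminal replicate 2, was the lowest of all with 2 reads (interval 0.244 to 7.29). It stood 39.5-fold below its replicate.

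Ccl5 (chromosome 11, 83525778 to 83530518, minus strand) had the same 3 libraries on top. Its values, replicate 1 before replicate 2, were 94.6 and 189 for WT luminal cells, 13.2 and 56.5 for WT basal-like cells, 178 and 8.07 for Lats1-CKO luminal cells, and 28.1 and 6.47 for Lats1-CKO basal-like cells. Cxcl10 and Ccl5 had r = 0.876 over the 8 libraries, with a rank correlation of 0.881. The gene nearest to Cxcl10 by this measure was Helz2 (r = 0.943), a nuclear receptor coactivator known as interferon-inducible, and for Ccl5 it was Mid1ip1 (0.937).

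The interferon response was read from 17 listed genes, of which 15 were analyzed and 13 tested, with 0 called by limma in the 7 comparisons. All 13 correlated positively with Cxcl10 (median r = 0.689) and with Ccl5 (median r = 0.706) over the 8 libraries. All 13 were also positive with Cxcl5, Cxcl16 and Ccl20 (medians 0.369, 0.335 and 0.455), and the 8 epithelial markers were positive with Cxcl10 and Ccl5 (medians 0.558 and 0.534), so the sign is not particular to this pair. The levels did not follow each other throughout. The interferon genes summed to 3034 in WT luminal replicate 1, against 667 in replicate 2, whereas both chemokines were lower in replicate 1. In Lats1-CKO luminal cells the sums were 1026 and 170, in the order of the chemokines. The 13 genes were lower in Lats1-CKO luminal than WT luminal cells in 13 of 13 cases (median log2 difference -1.29), and in 12 of 13 in WT basal-like versus WT luminal cells (median -1.47), where the median of all tested genes was 0.01 in both. WT luminal replicate 1 enters both comparisons.

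Cxcl16 (chromosome 11, 70453983 to 70459984, minus strand) was low in Lats1-CKO basal-like cells. The WT luminal libraries had values of 708 and 609 and the WT basal-like ones 675 and 146, while the Lats1-CKO luminal libraries had 349 and 85.8 and the Lats1-CKO basal-like ones 26.8 and 12.9. The Lats1-CKO basal-like libraries lay below all 6 others, and the Lats1-CKO luminal libraries lay below both WT luminal ones. WT basal-like replicates were 4.61-fold apart, and the 4 WT and 4 Lats1-CKO libraries overlapped between 146 and 349. In Lats1-CKO basal-like versus WT basal-like cells the log2 difference was -4.00 ± 0.85 (SE), with an adjusted p of 0.173 from limma over the 9031 tested genes, so Cxcl16 was not called. Without WT basal-like replicate 1 it was -2.90 ± 0.85, and without replicate 2 of that group -5.10 ± 0.84. Against Lats1-CKO luminal cells it was -3.15 ± 0.85 (limma adjusted p = 0.343), with -2.14 ± 0.89 without Lats1-CKO luminal replicate 1 and -4.15 ± 0.89 without replicate 2. In Lats1-CKO luminal versus WT luminal cells it was -1.92 ± 0.85 (limma adjusted p = 0.9998), with -2.92 ± 0.89 without Lats1-CKO luminal replicate 1 and -0.91 ± 0.89 without replicate 2. DESeq2 on the recovered reads called the differences of Lats1-CKO basal-like cells, with an adjusted p of 4.69e-05 versus WT basal-like and 0.00458 versus Lats1-CKO luminal cells, so the call depends on the tool.

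The epithelial markers moved with Cxcl16. All 8 correlated positively with it over the 8 libraries (median r = 0.937), and limma called 5 of them lower in Lats1-CKO basal-like than WT basal-like cells: Epcam, the adhesion molecule of the sort, Cdh1 (E-cadherin), the simple-epithelial keratins Krt8 and Krt18, and the tight junction gene Cldn3. Of all tested genes, limma called 0.554% in this comparison, and 0 when the model held just this pair of groups. Cdh1, for example, fell from 400.3 and 444 to 21.4 and 19.4, a log2 difference of -4.30 ± 0.25 (limma adjusted p = 0.00251). The part of the epithelial genes in the Cxcl16 difference was not tested. Of the proteases that can release chemokines from the membrane or trim them, 6 of 8 listed were analyzed and 4 tested, with 0 called. Adam10 and Adam17, the sheddases of Cxcl16, ran from 25.5 to 68.6 and from 80.4 to 144. The genes closest to Cxcl16 were Nkain1 (r = 0.991), Pwwp2b (0.988) and Stx3 (0.980), a syntaxin of the apical membrane of epithelial cells.

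**Figure D3:**
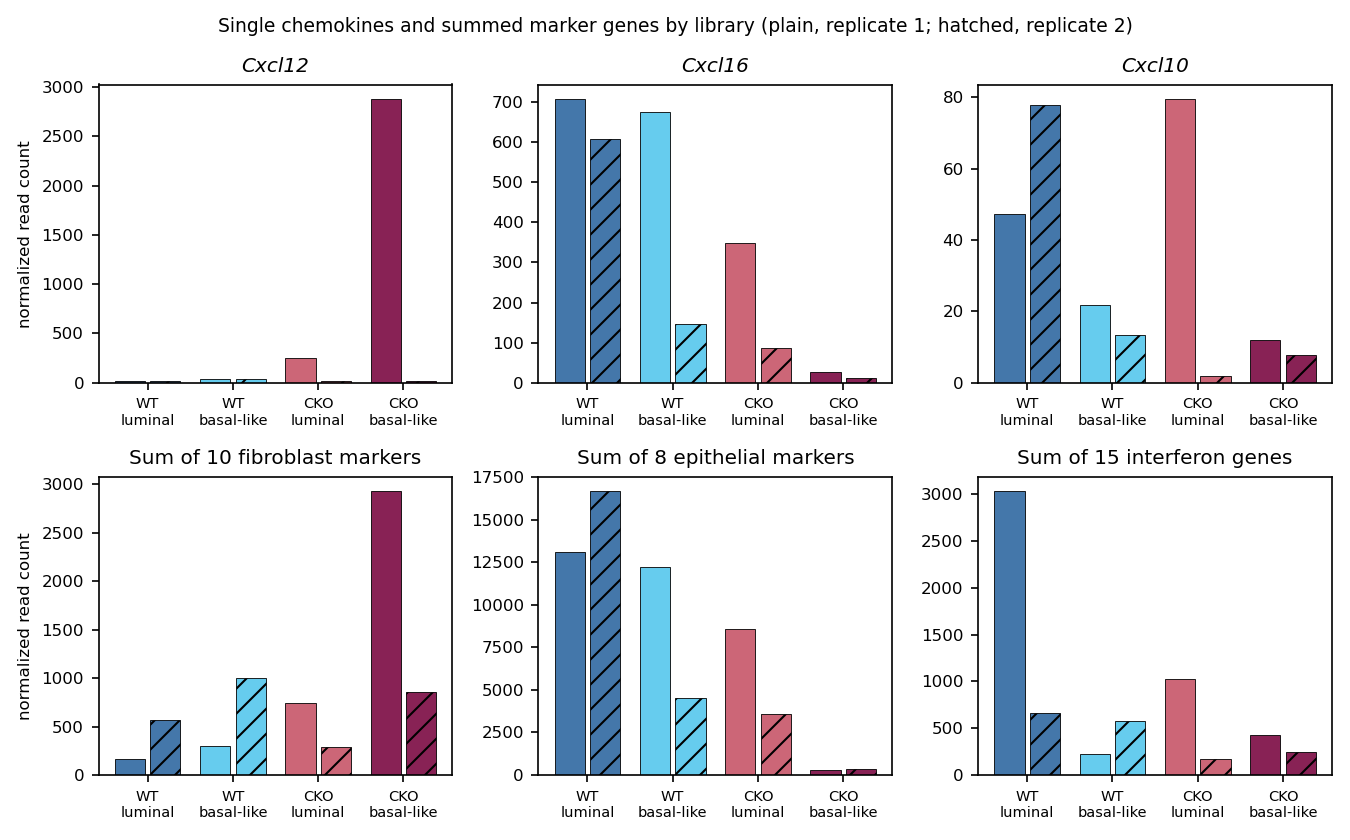
Normalized read counts of Cxcl12, Cxcl16 and Cxcl10 (top) and summed normalized read counts of 10 fibroblast, 8 epithelial and 15 interferon response genes (bottom) on the y axes, with a bar per library, plain for replicate 1 and hatched for replicate 2. The fibroblast sum peaks at 2932 in the library with Cxcl12 at 2881, both the epithelial sum and Cxcl16 are lowest in Lats1-CKO basal-like cells, and the interferon sum peaks at 3034 in WT luminal replicate 1, where Cxcl10 is 47.3.

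Ccl20 (chromosome 1, 83116766 to 83119167, plus strand) was the lowest member by reads and was at 0 in Lats1-CKO basal-like cells. Its values, replicate 1 before replicate 2, were 10.8 and 11.5 for WT luminal cells, 7.0 and 6.36 for WT basal-like cells, 14.4 and 2.02 for Lats1-CKO luminal cells, and 0 and 0 for Lats1-CKO basal-like cells. With 3 reads over the group taken as the floor, mean Ccl20 was at least 5.71-fold lower there than in WT luminal, 3.38-fold lower than in WT basal-like and 4.23-fold lower than in Lats1-CKO luminal cells. These bounds rest on 26, 17 and 17 reads, whose own counting error they leave out, and in Lats1-CKO luminal cells on replicate 1, since replicate 2 held 2 reads. Taken singly, the counting intervals of the Lats1-CKO basal-like libraries reached up to 4.94 and 4.77 and overlapped those of the WT basal-like libraries. The fitted log2 difference from WT basal-like cells, -2.94 ± 1.0 (limma adjusted p = 0.457), depends on the pseudocount, and was -1.22 with a pseudocount of 5. Ccl20 reached the filter value of 10 in 3 libraries, all luminal, so both groups of that comparison lay below it. Like Cxcl16, Ccl20 had positive correlations with all 8 epithelial markers (median r = 0.922).

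Ccl2 (chromosome 11, 82035571 to 82037453, plus strand) ran the other way. The WT luminal libraries had values of 27.0 and 64.4 and the WT basal-like ones 41.2 and 64.4, while the Lats1-CKO luminal libraries had 226 and 48.4 and the Lats1-CKO basal-like ones 418 and 101. Both Lats1-CKO basal-like libraries lay above both WT basal-like libraries, with a log2 difference of 1.98 ± 0.90 (limma adjusted p = 0.590), and the Lats1-CKO luminal libraries overlapped the WT luminal ones. The difference between the basal-like groups was 0.96 without Lats1-CKO basal-like replicate 1 and 3.0 without replicate 2 of that group. Over the 8 libraries Ccl2 had r = -0.535 with Cxcl16 and 0.859 with Cxcl12, where the rank correlation with Cxcl12 was 0.452. All 8 tested fibroblast markers correlated positively with Ccl2 (median r = 0.751). The closest genes were Gstm2 (r = 0.971), C1ra (0.965), a complement protease, and Ift27 (0.961). Gstm2, a glutathione transferase, was at 129 in Lats1-CKO basal-like replicate 1 and at 0 to 57.6 in the other libraries.

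Csf1 (chromosome 3, 107741048 to 107760469, minus strand) had the narrowest range of the 8 members with reads in every library. Its values, replicate 1 before replicate 2, were 334 and 540.3 for WT luminal cells, 412 and 411 for WT basal-like cells, 422 and 73.7 for Lats1-CKO luminal cells, and 717 and 282 for Lats1-CKO basal-like cells. Across the 8 libraries the highest stood 9.73-fold above the lowest, which was Lats1-CKO luminal replicate 2. No pair of groups was separated without overlap. Csf1 followed Cxcl1, with r = 0.890 and a rank correlation of 0.857. Il34, the other ligand of Csf1r, was between 3.03 and 32.6 and not called. Csf1r, which marks macrophages and monocytes, was at 0 to 8.04.

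The 4 pairwise comparisons, the genotype and population differences averaged over the other factor, and the interaction (the population difference in Lats1-CKO minus that in WT cells) were tested with limma. At an adjusted p under 0.05, 0 of the 8 members other than Cxcl12 were called in any of the 7. Of all tested genes, 0% were called in WT basal-like versus WT luminal, 0% in Lats1-CKO luminal versus WT luminal, 0.554% in Lats1-CKO basal-like versus WT basal-like, 0.487% in Lats1-CKO basal-like versus Lats1-CKO luminal, 0.288% for genotype, 0.376% for population and 0% for the interaction. The 3 comparisons with 0 genes called had 133, 251 and 210 genes at an unadjusted p under 0.05. With Cxcl12 left untested, the number of members at an unadjusted p under 0.05 was 0, 0, 2, 2, 3, 2 and 0 in the order above, where 1.47%, 2.78%, 8.86%, 7.32%, 9.36%, 6.48% and 2.33% of all tested genes were. edgeR called 0 of these 8 as well, and 0%, 0%, 0.188%, 0.354%, 0.277%, 0.233% and 0% of all tested genes in the same order. DESeq2 with default settings called Cxcl16 alone, in the last 2 pairwise comparisons, for genotype and for population, where it called 1.99%, 1.59%, 2.8% and 1.35% of all genes. With the settings of the study it called Cxcl16 in the first 3 of these, beside 1.56%, 1.26% and 1.99% of all genes. These results do not show that the members were equal between groups, since the standard errors of the 8 tested members in the pairwise comparisons reach 1.83 on the log2 scale.

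Between WT populations, 4 of 9 members did not overlap, where 24.6% of tested genes did not. Cxcl12 was higher in WT basal-like cells, and Cxcl10, Ccl5 and Ccl20 were lower. The count includes Cxcl12, which was chosen on its values. For Ccl20 the counting intervals overlapped, at 4.67 to 21.3 and 6.80 to 18.1 in WT luminal libraries. In the WT basal-like libraries they were 3.20 to 13.3 and 2.75 to 12.5. Cxcl10 differed by -1.76 ± 1.32, Ccl5 by -2.24 ± 1.39 and Ccl20 by -0.66 ± 1.0 on the log2 scale, each with a limma adjusted p of 1, and by -2.09, -1.23 and -0.72 without WT basal-like replicate 1 or -1.44, -3.25 and -0.60 without replicate 2 of that group. In Lats1-CKO luminal versus WT luminal cells 1 of 9 did not overlap (Cxcl16, lower), with 31.1% of tested genes. In Lats1-CKO basal-like versus WT basal-like cells 4 of 9 did not overlap, against 35.4% of tested genes, with Ccl2 higher and Cxcl16, Cxcl10 and Ccl20 lower. For Cxcl10 this difference was -0.77 ± 1.32 (limma adjusted p = 0.913), and between -1.09 and -0.44 when 1 library was left out. In Lats1-CKO basal-like versus Lats1-CKO luminal cells 2 of 9 did not overlap (Cxcl16 and Ccl20, both lower), with 35.7% of tested genes. The fitted Ccl20 difference there was -2.77 ± 1.0 (limma adjusted p = 0.571), with -1.59 without Lats1-CKO luminal replicate 1 and -3.94 without replicate 2. With 0 reads in Lats1-CKO basal-like cells its size is set by the pseudocount, and it was -1.22 with a pseudocount of 5. Between the 4 WT and 4 Lats1-CKO libraries 0 of 9 were free of overlap, with 4.55% of tested genes, and between the populations 0 of 9, with 2.85%. The median log2 difference of the members was -0.11 between the WT populations, -1.26 in Lats1-CKO luminal versus WT luminal, -0.70 in Lats1-CKO basal-like versus WT basal-like and 0.55 between the Lats1-CKO populations, and the median of all tested genes was between -0.02 and 0.01. These comparisons share groups.

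**Figure D4:**
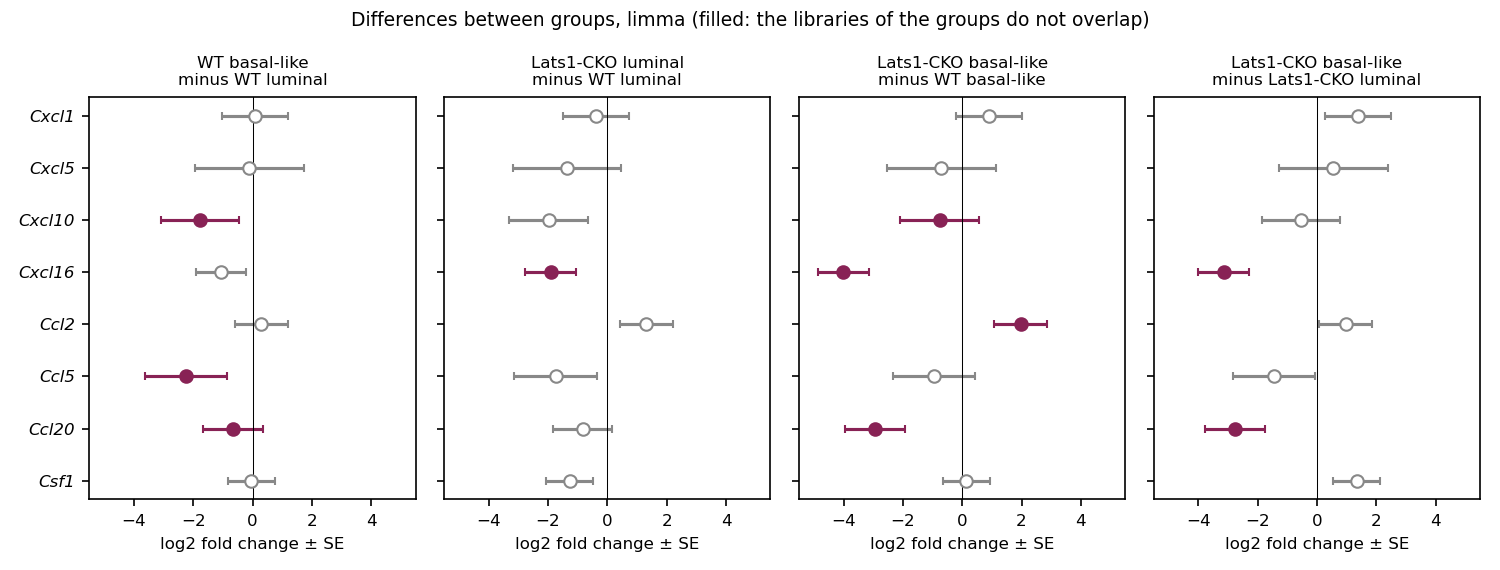
Log2 fold change of 8 of the 9 genes (all but Cxcl12) in the 4 pairwise comparisons on the x axis, first group minus second, as a point with its standard error from limma. Filled points mark genes whose libraries do not overlap between the groups. Cxcl16 lies at -4.00 in Lats1-CKO basal-like versus WT basal-like cells, and 0 of the points passed the adjusted threshold.

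The remaining chemokines and cytokines were followed with a list of 39 genes, of which 16 were analyzed and 10 tested. None of the 10 was called by limma in the 7 comparisons, and 585 to 845 genes were at an unadjusted p under 0.05 in the 4 comparisons with calls. Some were named after their values were seen. Ccl7, the monocyte attractant next to Ccl2 in function, was at 32.1 in Lats1-CKO basal-like replicate 1 and at most 6.47 elsewhere, and did not pass the filter on low values. Csf3, the neutrophil growth factor, was at 33.8 to 137 in the 4 WT libraries, 35.5 and 4.04 in the Lats1-CKO luminal libraries, and 2.68 and 5.18 in the Lats1-CKO basal-like ones. Cx3cl1, another membrane-anchored chemokine, was highest in Lats1-CKO basal-like replicate 1, at 237, and 20.7 in its replicate. Mmp2, a protease that can inactivate Cxcl12, was at 442 in that library and 2.55 to 137 in the others. The NF-kB list of 17 factors and inhibitors had 15 genes analyzed and 13 tested, with 0 called. Its summed level was highest in Lats1-CKO luminal replicate 1 (3240) and lowest in replicate 2 of the same group (1471), the order of all 9 members in that group, whereas in Lats1-CKO basal-like cells it was 1961 and 2560. Without the inhibitor Nfkbia (656 and 1465) the latter sums were 1305 and 1095, so their order turns on single genes. Nfkb2, Rela, Relb, Nfkbie and Tnfaip3 were also lower in replicate 1 there. The other analyzed genes of the list were higher in it, Tnfaip2 (272 and 76.4) by the most. Whether NF-kB had a part in the member values was not tested.

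Markers of cells that the ligands attract were followed by list. Of 11 macrophage and monocyte markers 4 were analyzed, and they summed to 80.7 to 453, mostly Cd14 (41.4 to 441), which epithelial cells can also express, while Lyz2 was at 0 to 15.5. Cd68, a lysosomal protein abundant in macrophages, stood at 24.1 (replicate 1) and 73.8 (replicate 2) for Lats1-CKO basal-like cells, at 30.7 for Lats1-CKO luminal replicate 1, and at 6.06 to 14.0 in the other 5. Lyz2 too was highest in Lats1-CKO basal-like replicate 2. The neutrophil list gave 1 of 5 genes, S100a8, at 0 to 8.64, and the endothelial list 1 of 5, Kdr, at 18.8 in Lats1-CKO basal-like replicate 1 and at most 1.92 elsewhere. None of the 7 T cell markers was among the genes analyzed. The parts of such cells in the member values were not tested.

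In GENCODE M21, Cxcl10 lies within Art3 and Ccl2 within Gm17268, both on the opposite strand and not analyzed here. Cxcl16 overlaps the start of Zmynd15, also on the opposite strand, whose values were 0 to 9.46. Since the strand setting of the counting is not stated, whether reads in these overlaps were counted for either gene is not known.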

How the data were processed

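MARS-seq libraries were prepared by the authors from 30 ng of RNA per sample. According to the methods, reads were trimmed with cutadapt, aligned to mm10 with STAR 2.4.2a and counted with htseq-count in union mode on Gencode genes, extended by 1000 bases at the 5′ and 100 bases at the 3′ edge. Genes with at least 5 reads in a sample were kept. The Gencode version, the strand setting and the use of molecular identifiers are not given in the sources used here. The deposited values are a signal, the reads per gene scaled with the size factor that DESeq2 gave the library, as computed by the authors. A further 24 columns hold the authors' own fold changes and p-values for 6 pairs of groups and were not used.

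For 100% of values, dividing by the value of 1 read gave a whole number within 1e-06, and these recovered reads entered the count tests. Library totals were 1070358 to 2334446 reads. Groups came from the sample labels, and replicates are numbered by sample order. The members and gene lists were chosen with earlier results of these data known. In R 4.3.3, limma 3.58.1 was fitted with a trend of variance on intensity to log2(value + 1), in 9031 genes that reached 10 in 2 or more libraries (1893 were left out), as 1 model over all 8 libraries with 4 residual degrees of freedom. This scale understates the change of low genes. Calls were made at an adjusted p under 0.05, by the method of Benjamini and Hochberg across the tested genes. A member's fold change was printed where the libraries of the groups did not overlap. The 3 most similar genes (5 for Cxcl12) were taken by Pearson's r among genes with a mean of at least 10, which left out Ccl20. Receptors, Il34 and genes called in any comparison were named from the lists. Levels were not compared between genes, since 3′ tags carry no length. The test was checked on simulated data in which every gene had the same spread. That check does not cover members whose replicates lay far apart. Alternatives were a pseudocount of 5, no filter, TMM scaling, edgeR 4.0.16, DESeq2 1.42.0 with default and with the study's settings, a model of the compared groups only, and leaving out each library.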

Additional observations from a re-analysis of the deposited data

How the results depend on the processing

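None of the 8 members other than Cxcl12 was called by edgeR on all libraries, nor by limma under any setting run, leaving out each of the 8 libraries included. DESeq2 with default settings called 1 member, Cxcl16, in 4 comparisons: Lats1-CKO basal-like versus WT basal-like cells, versus Lats1-CKO luminal cells, genotype (adjusted p = 5.76e-05) and population (0.0328). With the study's settings it called 1 member, Cxcl16 again, in the first 3 of these (0.000224, 0.0198 and 0.00017). Over 15 settings the log2 difference of Cxcl16 in Lats1-CKO basal-like versus WT basal-like cells ran from -5.10 (without WT basal-like replicate 2) to -2.90 (without WT basal-like replicate 1), with adjusted p from 4.69e-05 to 0.715. The cause of the difference between tools was not tested. Of the 10 fold changes given with a standard error, 0 reversed under any setting, and 4 values passed the threshold under an alternative alone. These 10 were printed because the libraries of the 2 groups did not overlap. Leaving out a library could therefore not reverse them, and the absence of reversals is no measure of their stability.

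Counts over all genes moved more. In the order of the 7 comparisons, limma called 0, 0, 50, 44, 26, 34 and 0 genes, edgeR 0, 0, 17, 32, 25, 21 and 0, DESeq2 with default settings 4, 27, 184, 137, 276, 125 and 22, and DESeq2 with the study's settings 1, 27, 170, 138, 217, 109 and 21. When the model held just the pair of groups compared, 0 genes were called in each pairwise comparison, where fewer samples give the spread (185, 355, 558 and 561 at an unadjusted p under 0.05). Leaving out 1 library gave 0 to 0, 0 to 2, 0 to 81, 9 to 96, 0 to 70, 0 to 78 and 0 to 2. In Lats1-CKO basal-like versus WT basal-like cells the calls split as 10 higher and 40 lower by limma, 89 and 95 by DESeq2 with default settings. No paired analysis was possible because replicate numbers only follow the order of the samples and the labels pair no libraries. With 2 libraries a group and as few as 0 to 2 reads for Ccl20, Cxcl5 and Cxcl10 in some libraries, small differences were not detectable. Large ones could stay uncalled as well. Cxcl16 differed by -4.00 (log2) in Lats1-CKO basal-like versus WT basal-like cells, with a limma adjusted p of 0.173.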
